A study of Mus musculus with 2 samples.

Results

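The genes described here are 9 that move haem, iron or haem precursors across membranes or break haem down: Slc25a37, Abcb10, Fam210b, Slc25a38, Tmem14c, Flvcr1, Abcg2, Slc48a1 and Hmox1. They were chosen by name and known function, with earlier results of these data known, from 21938 protein-coding genes of the GENCODE annotation of mm10. Accessible regions were assigned to a gene when their midpoint lay in its body, or within 100 kb of one of its starts with no other protein-coding start nearer. By this rule 30 of the 24394 regions of the series belonged to the 9 genes.

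The assay was ATAC-seq, which uses the transposase Tn5 to place sequencing adapters in open chromatin. The cells were CFU-E, erythroid progenitors that form small red cell colonies, isolated as primary cells from male C57BL/6J adults aged 5 to 6 weeks, and the labels list no treatment and no genetic change. There were 2 libraries of 50000 cells each, labelled as biological replicates 1 and 2, which carried 1 donor identifier and separate biosample identifiers. They form 1 group, so no conditions were compared and no test between groups was possible; whether the libraries are independent is not known, so their values are given side by side with no SD.

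Developing red cells make haem in their mitochondria, and every step of that synthesis needs transport. Iron and glycine must enter the mitochondrion, a porphyrin precursor must return to it from the cytosol, and surplus haem, which is toxic when free, is exported from the cell or broken down. Several of the genes were found as erythroid genes of haem synthesis in mouse or zebrafish, and erythroid genes of this kind are commonly controlled by GATA1, TAL1 and KLF1 through sites in their promoters and introns.

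The series list, thresholded on the irreproducible discovery rate (IDR), is the list meant below unless another is named. Its regions were divided into 12354 of promoter class, with a midpoint within 1 kb of an annotated start of any gene, and 12040 others, called distal. Promoter regions were present at 12 of 12 erythroid marker genes, against 45.8% of all protein-coding genes. They were present at 0 of 8 granulocyte and monocyte markers, 0 of 8 T and B cell markers and 1 of 8 macrophage markers. Stem and early progenitor markers had them at 1 of 8 genes and megakaryocyte markers at 4 of 8. The megakaryocyte share was thus close to that of all protein-coding genes. In a bulk library, a site open in fewer cells and a site less open in each cell cannot be told apart.

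Most of the 9 genes had both an open promoter and open sites elsewhere, 7 of the 9 (77.8%), against 19.3% of all protein-coding genes. A promoter region, meaning one that reaches within 1 kb of any annotated start of the gene, was present at 8 of the 9 genes (88.9%), against 45.8% of all protein-coding genes. At least 1 distal region was assigned to 8 of the 9 (88.9%), against 27.6% of all protein-coding genes. Hmox1 was the gene with no promoter region and Flvcr1 the one with no distal region. The excess of promoter regions, and that of genes with both kinds, rested on the regions of lower fold. The cut was made by fold only, at the median of promoter and distal regions together, and not by p value. Among the upper 50% of regions by fold, a promoter region was left at 3 of the 9 (33.3%) and at 37.4% of protein-coding genes as a whole. A distal region was left at 3 of the 9 (33.3%) and at 14.4%. Both kinds were left at 0 of the 9 (0.0%) and at 8.15% of all protein-coding genes. The median number of regions per gene was 4.0 for the 9 genes and 1.0 for all protein-coding genes, although the stretch of sequence that could assign a region to a gene was shorter for the 9 (median 37.5 kb) than for all (median 48.9 kb). Of the 18 distal regions, 16 lay in introns, 3 of them introns of an overlapping gene, and 2 were intergenic. The same split was not made for all distal regions, so these numbers only describe position.

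**Figure D1:**
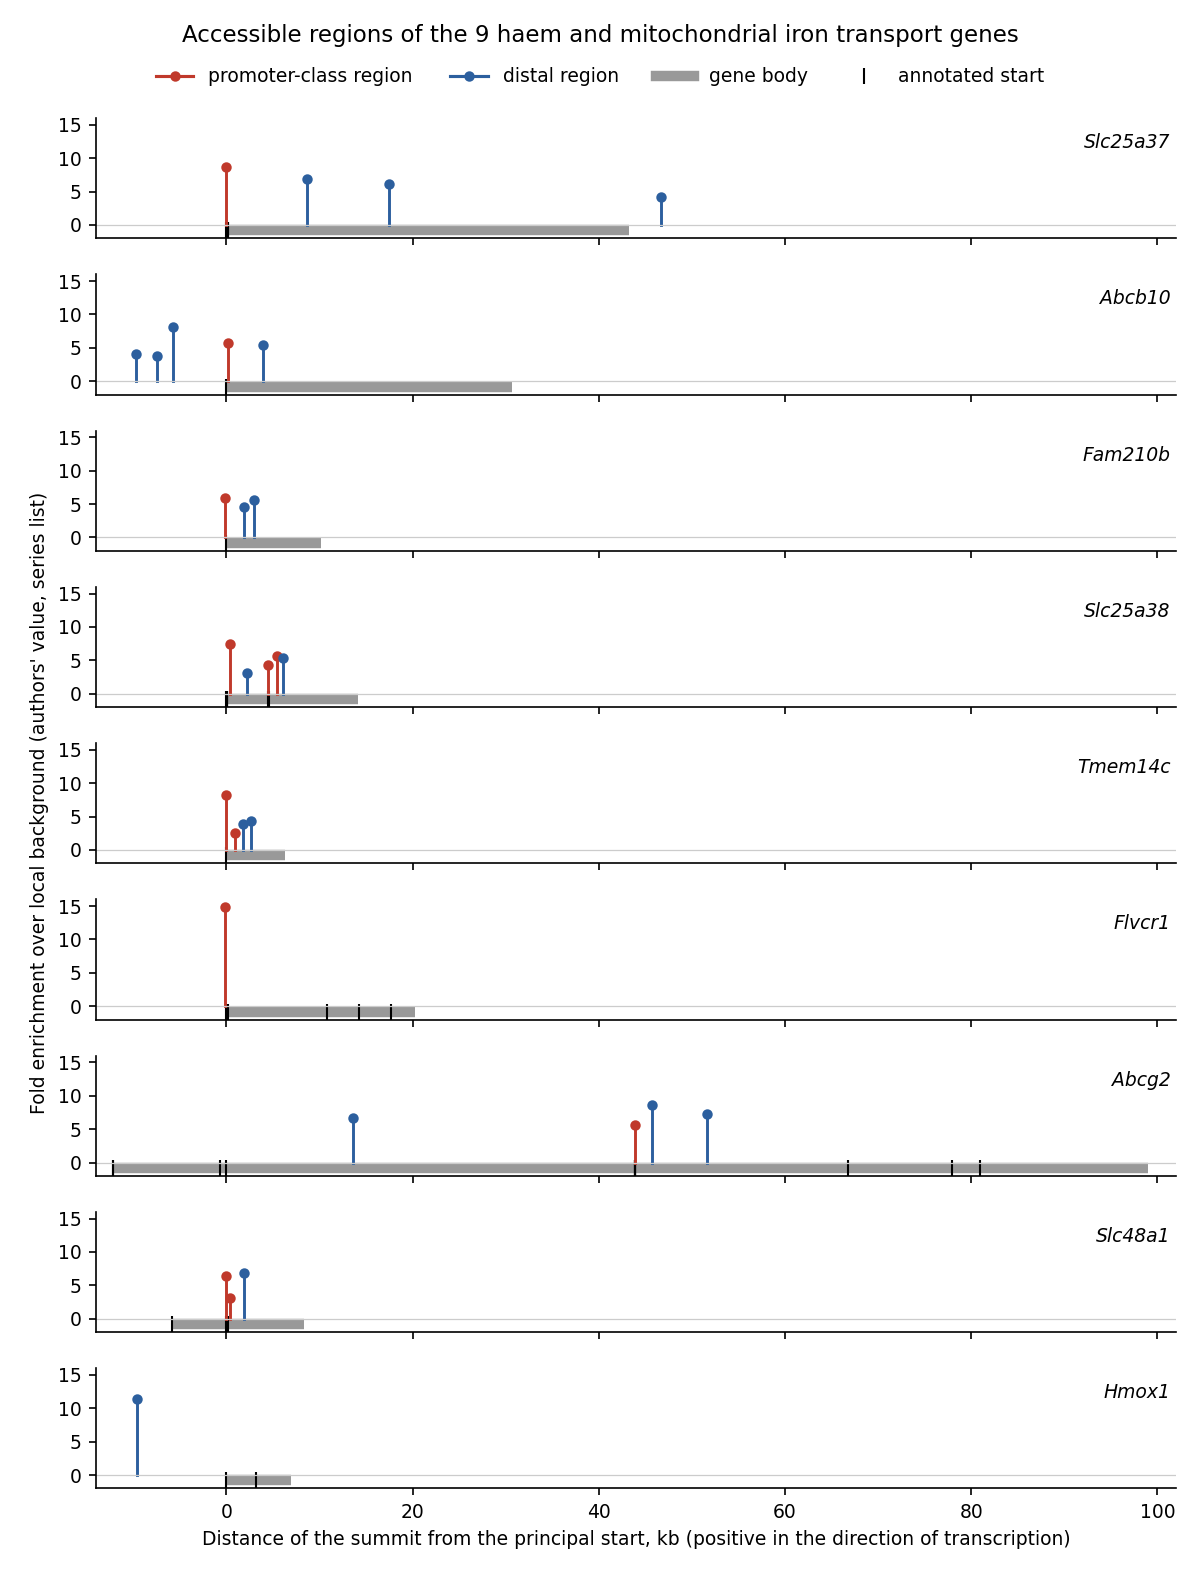
Position of each region's summit, in kb from the principal annotated start, against its fold enrichment in the series list, with 1 panel per gene. Regions cluster within a few kb of the start at Fam210b, Slc25a38, Tmem14c and Slc48a1. Regions lie far into the gene at Abcg2 and, besides the promoter, at Slc25a37, where the farthest lies past the 3′ end. Upstream regions lie at Hmox1 and, besides those at the promoter and in intron 1, at Abcb10.

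Slc25a37 encodes mitoferrin-1, the importer that brings iron into the mitochondria of developing red cells. The gene lies on the minus strand of chromosome 14 (chr14:69241848-69285112) and had 4 regions. The promoter region (chr14:69284874-69285539) had a fold enrichment over local background of 8.72 for the pooled reads that the series list was called on, 8.49 in replicate 1 and 8.83 in replicate 2. These folds, and the −log10 p beside them, are the authors' own values for each peak and were used only to describe or rank peaks within 1 list. By fold this promoter stood in the middle of all promoter regions, within the top 54.3%, whereas by −log10 p, which was 196, it stood within the top 9.07%. An antisense gene, Gm27223, starts 0.601 kb from the midpoint of this region, and the accessibility there cannot be divided between the genes. A pair of distal regions lay in intron 1. The nearer, 8.51 kb from the start (chr14:69276295-69276627), had a fold of 6.84 for the pooled reads, 6.27 in replicate 1 and 7.01 in replicate 2. The farther, 17.1 kb from the start (chr14:69267316-69268331), was 1016 bp wide, the widest of the 30, with a fold of 6.20 for the pooled reads, 5.72 in replicate 1 and 6.31 in replicate 2. Both intronic regions were thus present in either library alone. The remaining region lay beyond the 3′ end of the gene (chr14:69238258-69238575), with a fold of 4.24 for the pooled reads and 4.15 in replicate 1. In replicate 2 it was found only in the less strict overlap list, with a fold of 3.78. Its summit carried a match to the sequence of CTCF, the factor that marks insulators and loop anchors. It was the only one among the 18 distal summits of the 9 genes (5.56%), a lower share than the 11.6% of all distal summits.

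The summit window of the nearer intronic region is shown because a GATA match lay close to the summit. Capitals mark the match, which reads AGATAA on the opposite strand, and the sequence is written on the strand of the gene (minus, GRCm38, chr14:69276361-69276561).
Slc25a37 intron 1 summit: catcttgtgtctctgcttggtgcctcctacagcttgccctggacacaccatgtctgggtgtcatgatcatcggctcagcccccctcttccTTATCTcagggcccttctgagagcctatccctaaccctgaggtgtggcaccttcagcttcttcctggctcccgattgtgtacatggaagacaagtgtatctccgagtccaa

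Abcb10 encodes an ABC transporter of the mitochondrial inner membrane that binds and stabilises mitoferrin-1 in mouse erythroid cells. Its locus is on the minus strand of chromosome 8 (chr8:123952459-123983122). Its strongest region was not the promoter but a site 5.95 kb upstream of it (chr8:123988600-123989534), 935 bp wide, with a fold of 8.13 for the pooled reads, 8.28 in replicate 1 and 8.11 in replicate 2. The promoter region (chr8:123982744-123983248) had a fold of 5.69 for the pooled reads, 5.62 in replicate 1 and 5.30 in replicate 2. The upstream site was the higher of these regions in the series list and in either library's own list. It stood within the top 29.4% of distal regions by fold and the top 9.55% by −log10 p, and the promoter stood within the top 79.2% of promoter regions by fold. A region in intron 1 (chr8:123978861-123979464) had a fold of 5.38 for the pooled reads, 5.16 in replicate 1 and 5.47 in replicate 2. Farther upstream were 2 weaker regions, at 7.51 kb (chr8:123990325-123990945, fold 3.74) and 9.69 kb (chr8:123992710-123992919, fold 4.03), each present in the thresholded list of 1 library and the overlap list of the other. All 3 upstream regions fall in an intron of Gm20388, an annotated protein-coding gene that overlaps Abcb10, and no start of another protein-coding gene was nearer than 28.1 kb.

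The window at the summit of the strong upstream region is shown because it held 2 GATA matches, AGATAA and, on the opposite strand, TGATAA. Capitals mark both, on the strand of the gene (minus, GRCm38, chr8:123988738-123988938).
Abcb10 upstream summit: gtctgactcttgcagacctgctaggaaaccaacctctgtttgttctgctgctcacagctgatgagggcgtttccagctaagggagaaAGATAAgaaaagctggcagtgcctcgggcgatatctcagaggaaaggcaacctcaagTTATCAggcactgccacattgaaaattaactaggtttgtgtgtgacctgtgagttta

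Fam210b encodes a mitochondrial protein that aids iron import for haem synthesis in erythroid cells. On the plus strand of chromosome 2 (chr2:172345565-172355749), it had 3 regions of like strength. The promoter region (chr2:172345224-172345798) had a fold of 5.95 for the pooled reads, 5.49 in replicate 1 and 6.28 in replicate 2. In intron 1, a region 2.83 kb from the start (chr2:172348109-172348687) had a fold of 5.59 for the pooled reads, 5.71 in replicate 1 and 4.98 in replicate 2. The region between them (chr2:172347011-172347680) had a fold of 4.57 in the series list and 4.42 in each library. The libraries thus gave no single order of the promoter and the farther intronic region: the intronic one was higher in replicate 1 and the promoter in replicate 2.

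Slc25a38 encodes the importer of glycine into mitochondria, where glycine enters the first step of haem synthesis, and in humans its loss causes a congenital sideroblastic anaemia. The gene lies on the plus strand of chromosome 9 (chr9:120110374-120124504) and had 5 regions, all at its promoter or in its intron 1. The promoter region (chr9:120110250-120110995) was the strongest, with a fold of 7.46 for the pooled reads, 7.45 in replicate 1 and 7.08 in replicate 2. Around a second group of annotated starts inside the gene lay regions with folds of 4.33 (chr9:120114723-120115128) and 5.58 (chr9:120115496-120116024), followed by an intronic region of fold 5.33 (chr9:120116180-120116619). These 3 were in the thresholded list of both libraries, with folds between 4.19 and 5.30 in replicate 1 and between 4.54 and 5.53 in replicate 2. The fifth region, also intronic (chr9:120112502-120112749, fold 3.17), was in the overlap lists of both libraries and in the thresholded list of neither.

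Tmem14c encodes a protein of the mitochondrial inner membrane that helps a porphyrin precursor into the matrix for the last steps of haem synthesis. The gene, on the plus strand of chromosome 13 (chr13:41016292-41022586), is the shortest of the 9 and had 4 regions. The promoter region (chr13:41015924-41016638) had a fold of 8.23 for the pooled reads, 7.98 in replicate 1 and 7.93 in replicate 2. Regions in introns 3 and 4 were about as strong as each other. In intron 3 (chr13:41017784-41018334) the fold was 3.84 for the pooled reads, 3.92 in replicate 1 and 3.70 in replicate 2. In intron 4 (chr13:41018700-41019117) it was 4.34 for the pooled reads, 4.35 in replicate 1 and 3.90 in replicate 2. A narrow region between them and the promoter (chr13:41017154-41017346), with a fold of 2.55, was the weakest of the 30 and overlapped no region of either library's thresholded or overlap list, nor of the conservative list.

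Flvcr1 encodes a haem exporter of the plasma membrane that erythroid progenitors need to shed surplus haem, and its product is also known as a choline transporter. Its locus is on the minus strand of chromosome 1 (chr1:191005847-191026158). It had a single region, which was the strongest of the 30. This promoter region (chr1:191025966-191026809) had a fold of 14.9 for the pooled reads, 13.8 in replicate 1 and 14.4 in replicate 2, and a −log10 p of 214. It stood within the top 7.70% of promoter regions by fold and the top 4.58% by −log10 p, and it was the only one of the 12 promoter-class regions above the median of its class, which was 9.23. An antisense gene, A230020J21Rik, starts 1.04 kb from the midpoint of this region, and peak calls cannot divide the accessibility between the genes. No distal region was assigned to Flvcr1 in the series list or in any of the other lists examined.

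The 250 bases before the Flvcr1 start, from RefSeq, are shown because this was the strongest promoter (minus strand, GRCm38, chr1:191026191-191026440). Capitals mark 2 matches to CCCCGCCC, a sequence of the KLF and SP type, and 2 to CCAAT, which binds NFY and reads ATTGG on the opposite strand.
Flvcr1 promoter: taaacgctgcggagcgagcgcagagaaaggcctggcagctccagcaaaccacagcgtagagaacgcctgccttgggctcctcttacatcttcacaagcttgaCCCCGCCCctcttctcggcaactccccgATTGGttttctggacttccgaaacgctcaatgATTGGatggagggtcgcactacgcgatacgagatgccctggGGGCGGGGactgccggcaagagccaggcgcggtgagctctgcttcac

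Abcg2 encodes an ABC transporter of the plasma membrane that exports porphyrins along with many drugs. The gene is the longest of the 9 (chr6:58584523-58695676, plus strand, 111 kb) and has 11 annotated start positions spread over its length. No region of the series list covered the principal start or the starts near the 5′ end. The promoter region that was found lay at a group of 4 start positions inside the gene, 43.9 kb from the principal start (chr6:58640203-58641002), with a fold of 5.64 for the pooled reads, 5.76 in replicate 1 and 5.13 in replicate 2. The strongest region lay 1.82 kb beyond these internal starts (chr6:58641989-58642818), with a fold of 8.63 for the pooled reads, 7.61 in replicate 1 and 9.14 in replicate 2. It stood within the top 25.0% of distal regions by fold and the top 4.66% by −log10 p, and in either library it was above the internal promoter. A further region 7.89 kb beyond the same starts (chr6:58648159-58648782) had a fold of 7.31 for the pooled reads, 6.75 in replicate 1 and 6.84 in replicate 2. The last, 13.6 kb from the principal start (chr6:58609898-58610730), had a fold of 6.65 for the pooled reads and 5.68 in replicate 1, and in replicate 2 it was in the overlap list only, with a fold of 6.43. In the overlap list of the series, a region of fold 2.82 (chr6:58596193-58596379) lay within 1 kb of the principal start.

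Slc48a1 encodes HRG1, which carries haem out of endosomes and lysosomes and is best known from macrophages that recycle red cells. It occupies the plus strand of chromosome 15 (chr15:97778520-97792692). At its principal start the region chr15:97784155-97784498 had a fold of 6.36 for the pooled reads, 6.49 in replicate 1 and 5.90 in replicate 2. In intron 1, 1.62 kb from the nearest start, the region chr15:97785774-97786447 had a fold of 6.85 for the pooled reads, 6.57 in replicate 1 and 6.98 in replicate 2. The intronic region was above the promoter in each of these lists. Between them, chr15:97784663-97785002 had a fold of 3.14 for the pooled reads and 3.01 in replicate 1, and in replicate 2 it was in the overlap list only, with a fold of 2.73. The 5′-most annotated start, that of a processed transcript, had no region in the series list within 1 kb.

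Hmox1 encodes haem oxygenase 1, which opens the haem ring and releases its iron. In other mouse cells the gene is known to be controlled from enhancers upstream of it, at antioxidant response elements that Nrf2 and Bach1 bind together with small Maf proteins; Bach1 is released when it binds haem. The gene lies on the plus strand of chromosome 8 (chr8:75093621-75100589). Its single region in the series list was intergenic, 9.80 kb upstream of the start (chr8:75083466-75084179). The fold was 11.3 for the pooled reads, 10.4 in replicate 1 and 10.6 in replicate 2, the highest of the 18 distal regions in each. It stood within the top 8.80% of distal regions by fold and by −log10 p, which was 123. The start of the processed pseudogene Gm2059 was nearer to this region, at 4.68 kb, than that of Hmox1, whereas the nearest other protein-coding start, that of Tom1, was 23.5 kb away.

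The Hmox1 promoter was called in other lists but not in the series list. The conservative and overlap lists of the series held a region there (chr8:75093489-75093912) with a fold of 5.34 and a −log10 p of 19.7. In the ranked list behind the series list it had a global IDR of 0.147, above the limit of 0.05 that the lowest score kept, 540, stands for and farthest from it among the 6 regions of the 9 genes that the conservative list held and the series list lacked. In the ranked list behind the conservative list its global IDR was 0.0216. Each library's overlap list held a region there too, with a fold of 4.75 in replicate 1 and 5.18 in replicate 2.

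The summit window of the upstream Hmox1 region is shown because it held 3 copies of the antioxidant response core (plus strand, GRCm38, chr8:75083894-75084094). Capitals mark the 3 matches, each reading TGACTCAGC on the opposite strand, with centres at −41, −13 and 16 bp from the summit.
Hmox1 upstream summit: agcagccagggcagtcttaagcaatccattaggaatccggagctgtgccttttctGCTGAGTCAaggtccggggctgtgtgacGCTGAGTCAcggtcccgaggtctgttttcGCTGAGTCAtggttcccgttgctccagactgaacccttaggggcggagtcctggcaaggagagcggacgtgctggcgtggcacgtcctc

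Each of the 3 also holds the AP1 sequence TGAGTCA. The first is preceded by T, the base that completes an NFE2 match, and the others by C. This was the only one of the 30 summit windows with an NFE2 match, which was present in 2.57% of the 12040 distal windows. The number of copies was counted after the sequence had been seen: 3 or more AP1 matches were present in 16 of the 12040 distal windows (0.133%), and 3 or more matches to the antioxidant response core in 97 (0.806%). No GATA match lay in the Hmox1 window.

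Taken by class, most regions of the 9 genes were below the median of their class by fold, while by −log10 p the promoter regions were near the median of theirs and most distal regions above it. The 12 promoter-class regions had a median fold of 5.82, against 9.23 for all 12354, and 7 of the 12 were below the lower quartile of their class, 6.22. The 18 distal regions had a median fold of 5.49, against 6.52 for all 12040, 7 of the 18 were above the median of their class and 7 below its lower quartile. By −log10 p the 12 promoter-class regions had a median of 95.3, against 97.9 for all, and 5 of the 12 were above it. The 18 distal regions had a median −log10 p of 64.4, against 36.2 for all, and 14 of the 18 were above it. Fold and −log10 p thus ranked the distal regions on opposite sides of their class. At Abcb10, Abcg2 and Slc48a1 a distal region was the strongest of the gene by fold and by −log10 p, and at Hmox1 the only region was distal. At Slc25a37, Slc25a38, Tmem14c and Fam210b the promoter was the strongest, by both measures. The same was not counted over all genes, so this describes the named genes only. The widths were like those of the list, with a median of 591.5 bp for the 30 regions and 591 bp for all.

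**Figure D2:**
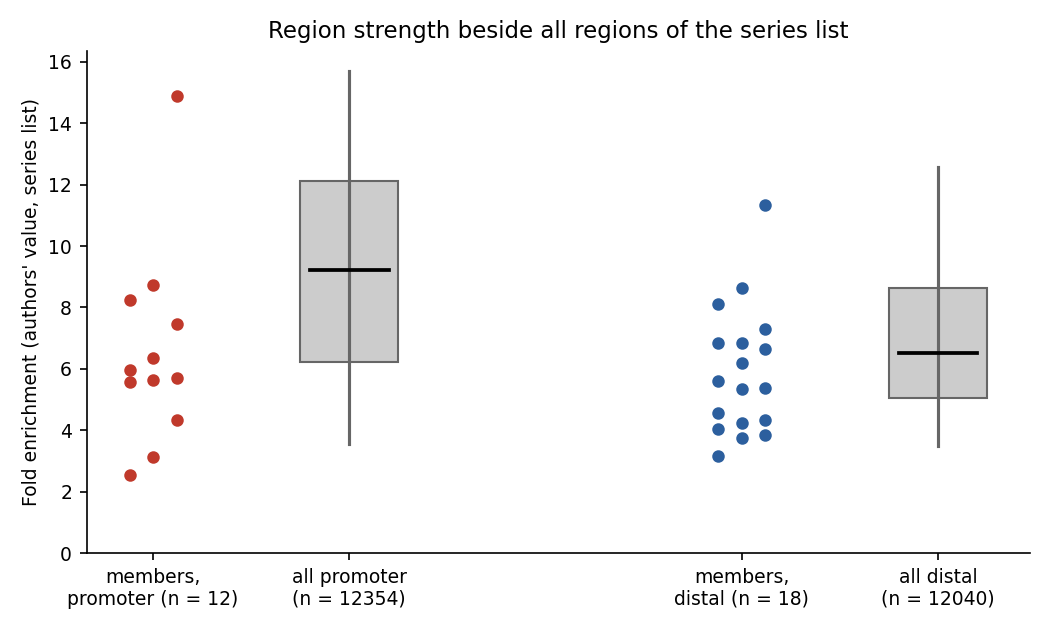
Fold enrichment of the 12 promoter-class and 18 distal regions of the 9 genes (points), each beside all regions of the class in the series list (box from lower to upper quartile with the median as a line, and a whisker between percentiles 5 and 95). The Flvcr1 promoter at 14.9 and the Hmox1 upstream region at 11.3 lie at the top of the points, and 1 promoter point lies above the median of 9.23.

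A larger share of the 30 regions than of all regions was found in either library alone. Of the 30 regions, 27 (90.0%) overlapped a region of replicate 1's own thresholded list, 24 (80.0%) one of replicate 2's and 23 (76.7%) one of both. Over all 24394 regions the shares were 74.9% for replicate 1, 70.6% for replicate 2 and 65.3% for both. The regions in neither thresholded list were those of fold 2.55 at Tmem14c and 3.17 at Slc25a38, and all others absent from 1 library had a fold of at most 4.24 in the series list except the Abcg2 region of fold 6.65. Counted on its own list, replicate 1 had a promoter region at 8 of the 9 genes, against 43.5% of all protein-coding genes, and a distal region at 8 of 9, against 19.9%. Replicate 2 likewise had a promoter region at 8 of the 9, against 42.6%, and a distal region at 8 of 9, against 18.7%. In both libraries Hmox1 was the gene with no promoter region and Flvcr1 the one with no distal region.

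**Figure D3:**
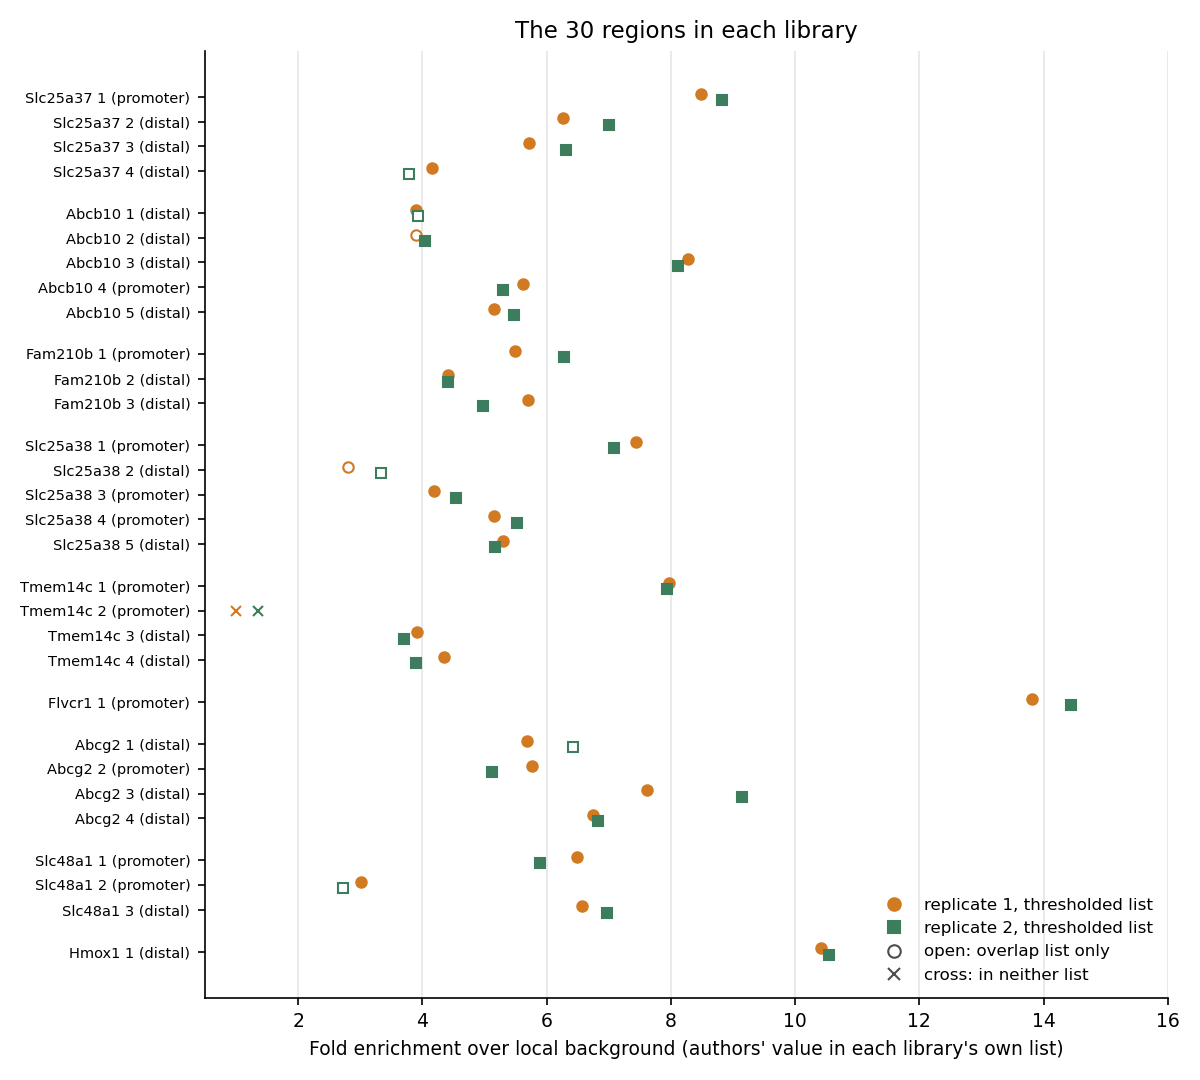
Fold enrichment of each of the 30 regions in replicate 1 (circles) and replicate 2 (squares), each from that library's own list, with regions numbered along each gene in its direction of transcription. Filled symbols are in the thresholded list, open symbols in the overlap list only, and the crosses at the left edge, which carry no value, mark the Tmem14c region found in neither.

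The other lists of the series added to this picture without taking a gene out of it. In the conservative list a promoter region was present at 9 of the 9 genes, against 45.7% of all protein-coding genes, and a distal region at 8 of 9, against 27.7%. In the overlap list a promoter region was present at 9 of the 9, against 52.3%, and a distal region at 8 of 9, against 46.0%. The conservative list held 35 regions of the 9 genes, among them 6 that the series list lacked. The one closest to the threshold was an intronic region of Slc25a37 (chr14:69277362-69277597, fold 2.41), with a global IDR of 0.0517 in the ranked list behind the series list. The strongest by fold lay 1.79 kb from the 5′-most start of Slc48a1 (chr15:97776609-97776848, fold 5.85), with a global IDR of 0.143 in that list. The member region just inside the threshold was the Tmem14c region of fold 2.55, with a score of 642 against the lowest kept score of 540.

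Sequence at the summits was read next, within 100 bp to each side of the strongest summit of each region, on both strands. A match is a description of the letters and not a measured binding site. GATA, written as A or T, then GATA, then A or G, was matched at 14 of the 18 distal summits (77.8%), against 49.8% of all distal summits, and at 3 of the 12 promoter summits (25.0%), against 16.7% of all promoter summits. With 50 bp to each side, the distal share was 61.1%, against 38.9%, and the promoter share turned, with 0 of 12, against 10.9%. Within 100 bp, the 4 distal summits without a GATA match were the farther intronic and the downstream region of Slc25a37, the farthest upstream region of Abcb10 and the upstream region of Hmox1. At least 2 GATA matches were present at 7 of the 18 (38.9%), against 20.2% of all distal summits. KLF, written as CC, then A or C, then C, then A or G, then CCC, was matched at 7 of the 12 promoter summits (58.3%), against 39.6% of all, and at 4 of the 18 distal summits (22.2%), against 19.0% of all. CCAAT was matched at 5 of the 12 promoter summits (41.7%), against 31.9% of all, and the antioxidant response core, written as TGA, then C or G, then any 3 bases, then GC, at 4 of the 18 distal summits (22.2%), against 25.4% of all.

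A composite of CTG and a GATA sequence separated by 7, 8 or 9 bases, of the kind recognised by complexes of TAL1 and GATA1, was matched at 5 of the 18 distal summits (27.8%), against 15.8% of all distal summits. The higher share depended on the window: with 50 bp to each side it was matched at 2 of the 18 (11.1%), against 12.1% of all. Each of the 5 lay in an intron, and each was in a different gene. Every such match is also counted as a GATA match. The 5 are shown with 20 bases to each side, each on the strand that reads CTG before GATA, with both parts in capitals. They lie at chr2:172348465-172348521 (Fam210b, plus), chr9:120112544-120112600 (Slc25a38, plus), chr13:41018868-41018923 (Tmem14c, plus), chr6:58642298-58642354 (Abcg2, minus) and chr15:97786156-97786211 (Slc48a1, plus) of GRCm38.
Fam210b: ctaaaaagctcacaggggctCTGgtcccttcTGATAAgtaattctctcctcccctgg
Slc25a38: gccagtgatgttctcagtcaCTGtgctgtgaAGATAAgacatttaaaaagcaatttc
Tmem14c: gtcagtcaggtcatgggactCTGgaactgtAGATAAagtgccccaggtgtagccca
Abcg2: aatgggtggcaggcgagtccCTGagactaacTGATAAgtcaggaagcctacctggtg
Slc48a1: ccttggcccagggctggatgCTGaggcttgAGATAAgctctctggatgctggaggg

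The spacing was 8 bases in Fam210b, Slc25a38 and Abcg2 and 7 in Tmem14c and Slc48a1. The regions that held them had folds between 3.17 at Slc25a38 and 8.63 at Abcg2, where the composite lay in the strongest region of the gene. In Fam210b and Tmem14c, with 2 distal regions each, it lay in the stronger of them, in Slc25a38 in the weaker of 2, and Slc48a1 had 1 distal region. GC content, which bears on how often such letters occur, had a median of 53.2% over the 18 distal windows and 51.2% over all distal windows, and of 66.9% over the 12 promoter windows and 63.7% over all promoter windows.

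**Figure D4:**
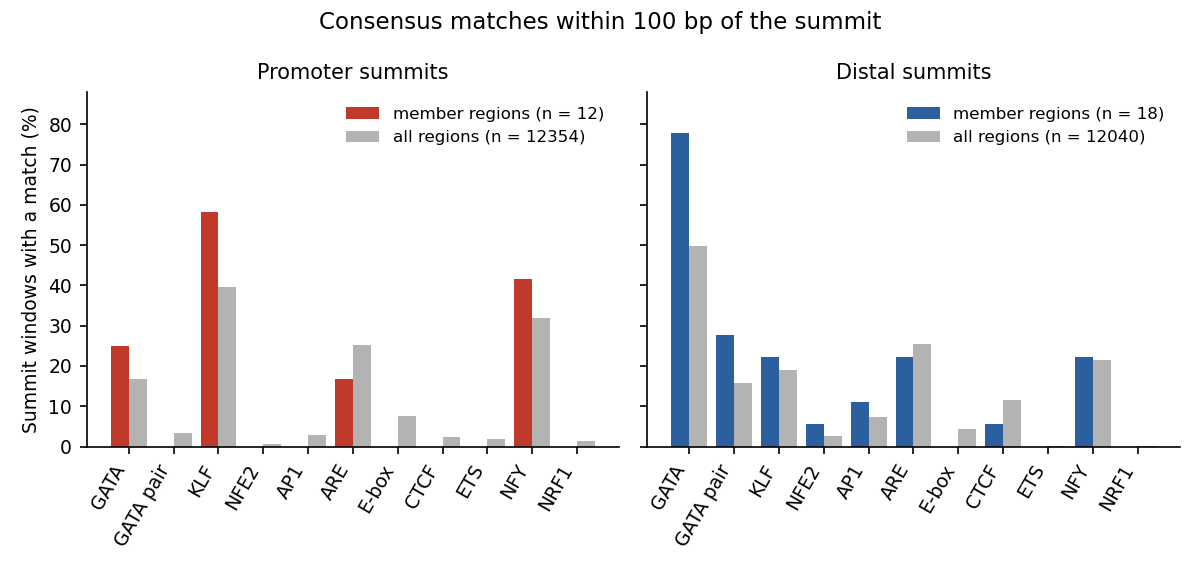
Share of summit windows with a match to each consensus, for the regions of the 9 genes (coloured) and all regions of the class (grey), at promoter summits on the left and distal summits on the right. GATA at distal summits (77.8% against 49.8%) and KLF at promoter summits (58.3% against 39.6%) are the tallest pairs.

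The 9 genes were set beside lists of other genes of iron and haem. Haem synthesis enzymes had a promoter region in 9 of 9 cases and a distal region in 6 of 9. Genes of transferrin iron uptake, storage and sensing had a promoter region in 12 of 13 cases, all but the transferrin gene Trf, and a distal region in 8 of 13. Other genes of haem and mitochondrial iron handling had a promoter region in 16 of 18 cases, all but Flvcr2 and Slc46a1, and a distal region in 9 of 18. Among the genes with a promoter region, its median fold was 6.91 for the transport genes, 6.60 for the synthesis enzymes, 9.69 for the transferrin list, 9.93 for the other handling genes and 10.7 for all protein-coding genes. The median −log10 p of these promoters was 118 for the transport genes, 115 for the synthesis enzymes, 154 for the transferrin list, 143 for the other handling genes and 129 for all protein-coding genes. The promoters of the 9 genes and of the synthesis enzymes were thus the lower ones of the 4 lists by both measures. The 9 genes had the highest share with a distal region of the 4 in the series list, but in the overlap list their 8 of 9 (88.9%) stood against 12 of 13 (92.3%) for the transferrin list. These counts are descriptions, since the lists are short and the libraries form 1 group.

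Close relatives of 3 of the genes, chosen after their values had been seen, differed from them in their regions. Slc25a28, which encodes mitoferrin-2, the importer used by cells other than red cells, had a promoter region of fold 10.8 and no distal region, against a promoter fold of 8.72 and 3 distal regions at Slc25a37. Flvcr2, the relative of Flvcr1, had neither kind of region. Hmox2, the constitutive haem oxygenase gene, had a promoter region of fold 15.3 and a distal region of fold 5.71. In the same series list Hmox1 had a distal region of fold 11.3 and no promoter region. The conservative and overlap lists did hold a Hmox1 promoter region, of fold 5.34.

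**Figure D5:**
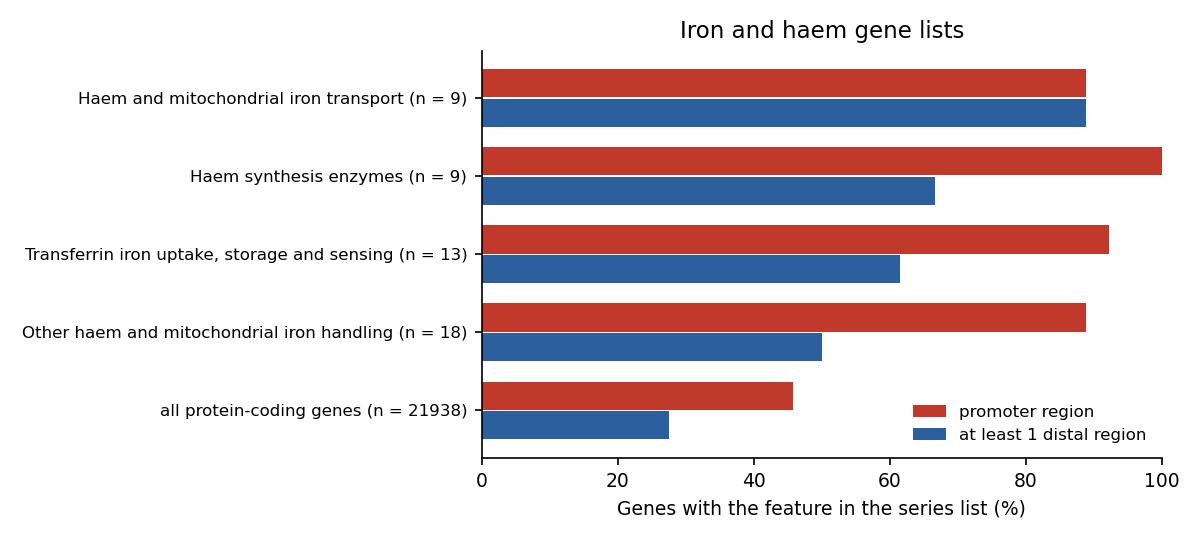
Share of genes with a promoter region (red) and with at least 1 distal region (blue) in the series list, for the 9 genes, 3 further iron and haem lists and all protein-coding genes. The 9 genes had 88.9% for both, and all protein-coding genes had 45.8% and 27.6%.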

How the data were processed

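The analysis began at peak lists made by the authors on mm10 from ATAC-seq libraries of CFU-E cells. The fold of a peak is a ratio to the caller's local background, and its p and q values were deposited as −log10 values. The score in thresholded and ranked lists was set by the authors from the IDR. Summit positions are also as deposited. The aligner, the caller and the handling of Tn5 offsets and duplicates are not given in the sources used, and the read depth is unknown from peak lists. Per the deposited file listing, lists were called for each replicate and for the pooled reads.

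Records that overlapped or touched were merged, and a merged region carries the fold and summit of its strongest record. Genes and starts are GENCODE M21, sequences GRCm38.p6 and RefSeq. Overlap means at least 1 bp. Python 3.11.15 and pysam 0.24.0 were used, and promoter calls and the assignment of regions were checked on simulated regions. The sequence search was checked on planted matches for GATA and the composite only, not for the other motifs. The genes, lists and motifs were chosen with earlier results of these data known; all 9 genes are named. With 1 group of 2 libraries no test was run. Promoter sequences of RefSeq were at hand for 6 of the 9 genes.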

Additional observations from a re-analysis of the deposited data

How the results depend on the processing

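Promoter regions were counted at 8 genes, distal regions at 8, 30 regions in all and 18 distal ones. With the upper 50% of regions by fold, promoter regions were left at 3 genes (33.3%, and 37.4% over the annotation) and distal ones at 3 (33.3%, and 14.4%). Both kinds were left at 0 genes (0.0%, and 8.15%). There were 6 regions in all, of which 3 were distal. The overlap list gave 53 regions, 34 of them distal, among 42936 regions in all, 26243 of them distal. Without replicate 1 or without replicate 2 the regions numbered 24 to 27, the distal ones 14 to 16, and both gene counts stayed at 8. The conservative list (35 regions), a promoter window of 500 bp, a limit of 50 kb, nearest starts required in the body, merging within 200 bp and nearest starts among all annotated genes moved no count by more than 1.5 times. Under the last, 28 regions were left, 16 of them distal. Hmox1 lost its region to a pseudogene, and Slc25a37 lost its downstream region to the antisense gene Gm27222. With 50 bp in place of 100 bp to each side of the summit, GATA was matched at 0 of 12 promoter summits of the 9 genes (0%, against 10.9% of all) and 11 of 18 distal ones (61.1%, against 38.9%), and the composite at 2 distal ones (11.1%, against 12.1%). KLF was matched at 4 promoter summits (33.3%, against 27.7%) and 3 distal ones (16.7%, against 14.2%), and CCAAT at 4 promoter summits (33.3%, against 23.4%) and 1 distal one (5.56%, against 11.5%), where 100 bp gave 4 (22.2%, against 21.5%). The antioxidant response core was matched at 3 distal summits (16.7%, against 15.5%), and at 1 promoter summit (8.33%, against 14.6%), where 100 bp gave 2 (16.7%, against 25.1%). No paired analysis was possible because there is 1 group and no test. Depth is unknown from peak lists, so a region missing from a list was not called there, which does not show closed chromatin.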

Other observations

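The overlap list of the series keeps peaks on weaker evidence and held 42936 regions in all, against 24394 in the series list. For the 9 genes it held 53, against 30, and the added regions were mostly at the 2 longest loci. Slc25a37 had 14 regions in it and Abcg2 had 12, against 4 each in the series list. At Slc25a37 the added regions had folds between 1.94 and 2.74, and several lay around the intronic site 8.51 kb from the start, the strongest of them at chr14:69277970-69278319 (fold 2.72). At Abcg2 the added regions had folds between 2.32 and 3.97, with the highest 1.41 kb from a 5′ start (chr6:58594349-58594786). Slc25a38, Abcb10 and Tmem14c had the same number of regions in both lists, 5, 5 and 4.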
